A study of Homo sapiens with 12 samples.

Results

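Transcripts of 10 BCL2 family genes, which encode regulators of apoptosis, were followed under vehicle and 3 doses of colforsin daropate in HEYA8 cells, an established line of human ovarian cancer. The members are a list of gene names with no measured value in its rule, drawn up when earlier results of these data were known: BCL2, BCL2L1, BCL2L2 and MCL1, which protect cells from death, and BAX, BAK1, BIK, BCL2L11, BBC3 and PMAIP1, which promote it. All 10 were among the 21207 genes of the deposited table, and all 10 passed the filter on low values that left 17767 genes for testing. Cells were kept for 48 h in medium with none of the compound (vehicle) or with the compound at 1, 5 or 10 µM, and no genetic change was made to any group. Each group held 3 libraries, described by the submitters as biological replicates, so there were 12 in all. The sample titles carry the number 6, 8 or 11, which recurs in every group and whose meaning the labels do not state. The study used 1 cell line, so the spread between libraries does not cover differences between lines or patients. Colforsin daropate is a water-soluble forskolin derivative, and forskolin activates adenylyl cyclase, the enzyme that makes cyclic AMP.

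Proteins of the BCL2 family decide whether the outer membrane of the mitochondrion stays intact. BAX and BAK1 are the effectors: once activated, they assemble into pores that release cytochrome c, which starts the caspase cascade. BCL2, BCL-xL (from BCL2L1), BCL-w (from BCL2L2) and MCL1 hold the effectors and their activators in check. The BH3-only proteins BIK, BIM (from BCL2L11), PUMA (from BBC3) and NOXA (from PMAIP1) bind the protective members through a short helix, and BIM and PUMA can also engage the effectors directly. Much of the regulation of these proteins lies after transcription, in phosphorylation, binding and degradation, which RNA levels do not show.

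Values are on the authors' variance-stabilised scale, on which 1 unit is close to a doubling for abundant genes and differences are smaller for genes near the floor of 4.865. They were deposited in steps of 0.01 below 10 and of 0.1 from 10 up. Counts quoted below were recovered from these values by inverting the stabilising curve and are normalised between libraries. Gene reads recovered in this way came to 24.1 to 48.7 megareads, with the fewest in vehicle library 6. That library also stood apart in its mitotic transcripts: over 23 G2/M genes its median value was 11.4, against 9.19 and 8.78 in vehicle libraries 8 and 11. For numbers 6, 8 and 11 the medians were 11.1, 9.89 and 9.51 at 1 µM, 10.5, 9.83 and 9.27 at 5 µM, and 9.44, 9.55 and 9.19 at 10 µM. The line carried high PAX8 (12.5 to 13.6) and KRT18 (13.6 to 14.9) in every library, while the epithelial markers EPCAM (5.45 to 5.72) and KRT19 (4.86 to 5.94) were close to the floor. The pan-leukocyte marker PTPRC was at 4.86 to 5.91, and CDH5, a cadherin of endothelial cells, at 10.8 to 13.1. PECAM1, also a marker of endothelial cells, was far lower than CDH5, at 5.57 to 7.39, and PDGFRB was at 5.45 to 6.66. Some of these markers moved with dose. Of 6 tested ovarian and epithelial markers at 10 µM, PAX8 (0.70, limma adjusted p = 0.0108) and KRT7 (1.13, 0.0368) rose, and KRT8 (-0.83, 0.00519) and KRT18 (-0.73, 0.0288) fell. Of 4 tested markers of other cell types COL1A1, a fibroblast collagen, rose (2.60, 0.0218), with values of 10.4, 8.37 and 8.40 at 10 µM, against 7.31, 5.83 and 6.24 in vehicle. The other 3 did not pass: CDH5 (0.47, limma adjusted p = 0.526), PECAM1 (0.22, 0.784) and PDGFRB, which was lower (-0.33, 0.442). Leaving out a single library lost the call of COL1A1 in 3 of 12 fits, of KRT18 in 4 and of KRT7 in 5. All 5 calls were lost without number 8 and without number 11. These fits had no term for the number. The summed recovered counts of these other markers were 4100 to 5440 at 10 µM and 1790 to 7870 in vehicle, and those of the ovarian and epithelial markers 40500 to 42900 and 40500 to 68400. Most of the sum of the other markers was CDH5, with a mean count of 4520 against 294 for COL1A1, so it does not follow COL1A1. The part of these marker changes in the members' results was not tested.

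A change was called where limma's moderated test across all 17767 genes gave a two-sided p under 0.05 after Benjamini-Hochberg adjustment. At 1 µM limma called 0 of 10 members, with 1 at an unadjusted p under 0.05, against 1.8% of all tested genes. At 5 µM BCL2, BCL2L1 and BIK fell and BCL2L2 rose, which made 4 of 10 members, while 15.1% of all tested genes were called in that comparison (7.44% lower and 7.67% higher). At 10 µM these 4 members were called in the same directions and BCL2L11 rose as well, 5 of 10 members against 22.6% of all tested genes (11.4% lower and 11.2% higher). The called members therefore included both protective and death-promoting genes in either direction at 10 µM. This limma fit had no term for the number. When all of number 8 or all of number 11 was left out of it, BCL2 alone of these 5 kept its 10 µM call (adjusted p up to 0.0459).

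Same-numbered libraries deviated together from their group means, so the number was also fitted as a block. At 1 µM this replicate block called BCL2L1 alone, against 12% of all genes. At 5 µM it called 9 of 10 members and at 10 µM the same 9, against 30.6% and 38.4% of all tested genes. They were the 5 members named above with MCL1, BAX and BBC3, which were lower, and BAK1, which was higher. Over the 4 protective members the median difference from vehicle was -0.17, -0.50 and -0.67 at 1, 5 and 10 µM, and over the 6 death-promoting members it was -0.02, -0.12 and -0.12. The median over all tested genes was 0 at each dose.

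**Figure D1:**
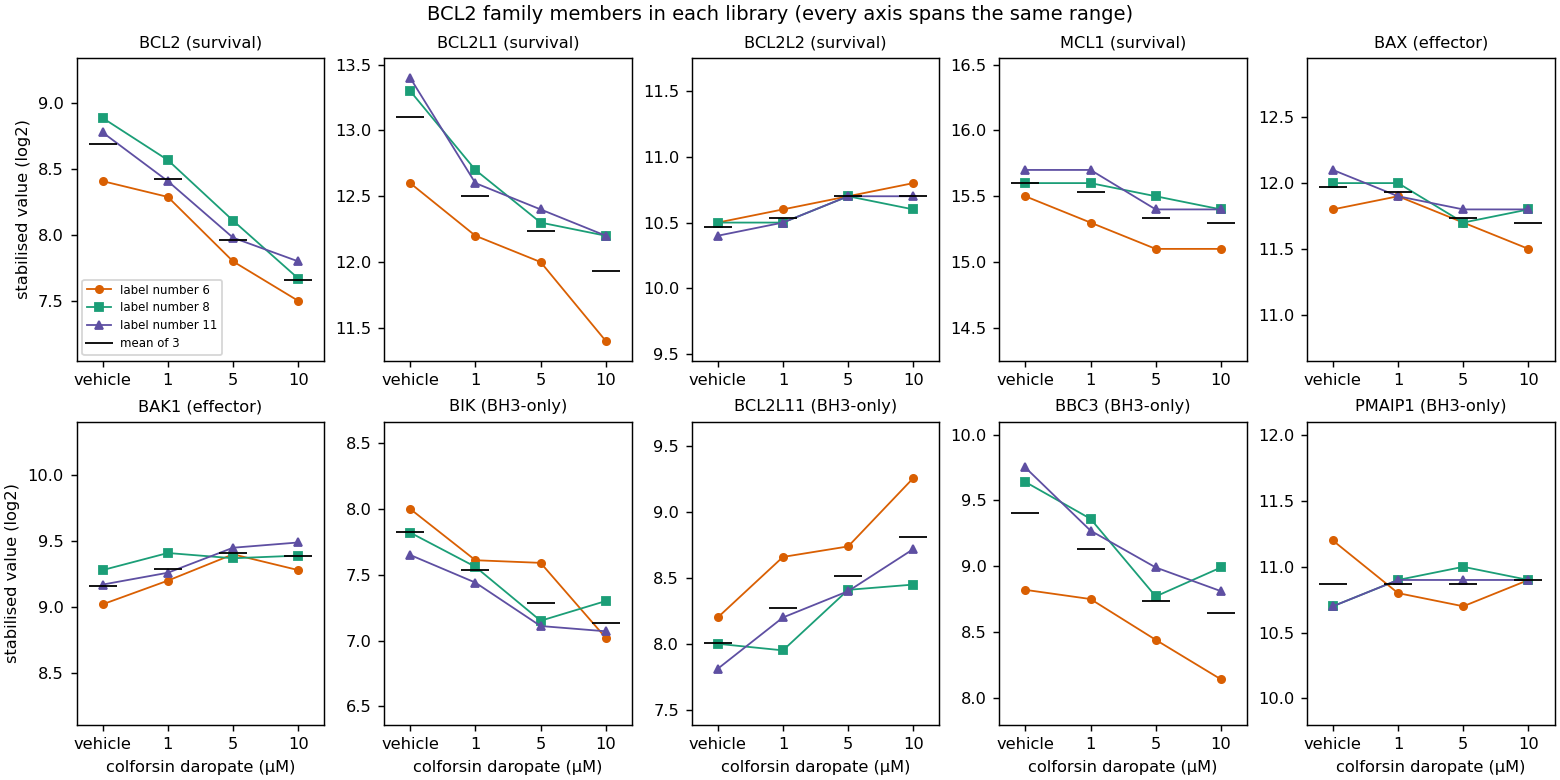
Variance-stabilised value of each of the 10 members in the 12 libraries, with dose in µM on the x axis (0 is vehicle) and 1 line per label number. BCL2, BCL2L1 and BIK decline and BCL2L11 climbs along the dose axis in each number, although single steps in BIK and BCL2L11 run the other way, and PMAIP1 runs downward from vehicle in number 6 and upward in numbers 8 and 11.

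BCL2, the founding member of the family (ENSG00000171791, chromosome 18, 63123346 to 63320128, minus strand, GRCh38), fell at 5 and 10 µM. In numbers 6, 8 and 11 its values were 8.41, 8.89 and 8.78 in vehicle, 8.29, 8.57 and 8.41 at 1 µM, 7.80, 8.11 and 7.98 at 5 µM and 7.50, 7.67 and 7.80 at 10 µM. Every library at 5 and 10 µM lay below every vehicle library, and the 1 µM libraries overlapped with vehicle. The recovered counts were 148 ± 20.5 at 10 µM and 362 ± 69.3 in vehicle (SD, n = 3 each), 2.44-fold lower at 10 µM. The difference from vehicle was -0.27 at 1 µM (limma adjusted p = 0.397), -0.73 at 5 µM (0.00584) and -1.04 ± 0.14 at 10 µM (SE, adjusted p = 4.87e-04). BCL2 was the only member called between doses, at 10 µM against 1 µM (-0.77, adjusted p = 0.0167, 4.71% of all genes called). That call was lost without 1 µM library 8 (0.0802) or 11 (0.0542) or 10 µM library 6 (0.0673). Both calls against vehicle held in each of the 12 fits that left out a single library, and the 5 µM call was lost when all libraries of number 8 (adjusted p = 0.134) or 11 (0.164) were left out. In bulk RNA such as this, fewer cells with a transcript and less of it per cell cannot be told apart.

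BCL2L1, whose main product BCL-xL protects many carcinoma cells (ENSG00000171552, chromosome 20, 31664452 to 31723989, minus strand), had the largest difference of the 10 members on the stabilised scale, although BCL2 had the larger fold in recovered counts. Its values were 12.6, 13.3 and 13.4 in vehicle, 12.2, 12.7 and 12.6 at 1 µM, 12, 12.3 and 12.4 at 5 µM and 11.4, 12.2 and 12.2 at 10 µM. Library 6 was the lowest in every group, and within each number the value was lower at each higher dose. The recovered counts averaged 3979 ± 1156 at 10 µM, against 8976 ± 2474 in vehicle, 2.26-fold lower. The difference was -0.60 at 1 µM (adjusted p = 0.271), -0.87 at 5 µM (0.0372) and -1.17 ± 0.25 at 10 µM (0.00623). With the replicate block the 1 µM difference passed (adjusted p = 0.00162). It also passed with the 4 libraries of number 6 left out, when the differences were -0.70 at 1 µM, -1.0 at 5 µM and -1.15 at 10 µM (adjusted p = 0.00138, 1.06e-04 and 4.37e-05). Without the block, the 5 µM call was lost in 6 of the 12 fits that left out a single library: adjusted p = 0.127 without vehicle 8, 0.133 without vehicle 11, 0.0523 without 1 µM library 11, and 0.124, 0.0811 and 0.0617 without 5 µM libraries 6, 8 and 11. With all libraries of number 8 left out adjusted p was 0.328 at 5 µM and 0.111 at 10 µM, and with number 11 left out 0.291 and 0.093, so both calls were lost.

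The annotation places ABALON, a noncoding RNA, on the strand opposite BCL2L1, where 1424 bases of exon are shared. Whether the authors counted reads by strand is not given in the sources used here, so reads from the 2 genes may not have been separated. The deposited entries include one for ambiguous reads (2.4% to 2.94% of reads), so reads on shared exon may instead have been left out of both genes. ABALON had differences from vehicle of -0.57, -0.90 and -1.13 at 1, 5 and 10 µM, close to the -0.60, -0.87 and -1.17 of BCL2L1, and of all tested genes its values had the highest correlation with BCL2L1 (r = 0.996 over 12 libraries).

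BCL2L2, which encodes BCL-w (ENSG00000129473, chromosome 14, 23298790 to 23311759, plus strand), was the protective member that rose. Its values were 10.5, 10.5 and 10.4 in vehicle, 10.6, 10.5 and 10.5 at 1 µM, 10.7 in each library at 5 µM and 10.8, 10.6 and 10.7 at 10 µM. The groups at 5 and 10 µM did not overlap with vehicle, but the gap was 1 rounding step of 0.1 at 10 µM. The difference of 0.23 ± 0.07 at both doses (adjusted p = 0.045 at 5 µM and 0.0336 at 10 µM) came to counts of 1608 ± 115 at 10 µM, against 1358 ± 56.0 in vehicle. These calls were weak. The 10 µM call was lost without vehicle 8 (0.0684), vehicle 11 (0.122), 1 µM library 8 (0.0501), or 10 µM library 6 (0.114) or 11 (0.0741). The 5 µM call was lost in 8 of 12 such fits, without vehicle 8 or 11, 1 µM library 8 or 11, any 5 µM library or 10 µM library 11, with adjusted p up to 0.157. Without all of number 8 or 11 both calls were lost (up to 0.407 at 5 µM and 0.303 at 10 µM). BCL2L2 shares 813 exon bases with the readthrough gene BCL2L2-PABPN1 on its own strand, which had a mean of 5.7 recovered counts.

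MCL1, a short-lived protective protein (ENSG00000143384, chromosome 1, 150574551 to 150579738, minus strand), had the highest level per length of all members. Its values were 15.5, 15.6 and 15.7 in vehicle, 15.3, 15.6 and 15.7 at 1 µM, 15.1, 15.5 and 15.4 at 5 µM and 15.1, 15.4 and 15.4 at 10 µM. The 10 µM libraries lay below all vehicle libraries, with the closest pair 1 rounding step apart. The difference did not pass at 1 µM (-0.07, adjusted p = 0.879), 5 µM (-0.27, 0.237) or 10 µM (-0.30 ± 0.14, 0.151). With the replicate block it passed at 5 and 10 µM (adjusted p = 0.0125 and 0.00489).

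**Figure D2:**
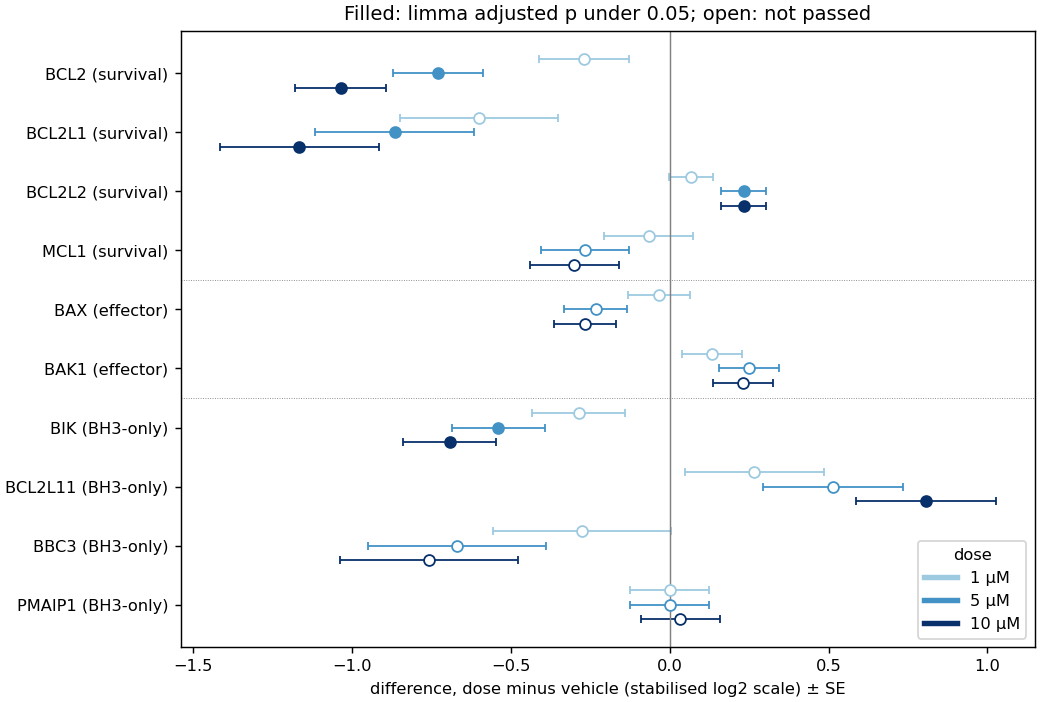
Difference from vehicle on the stabilised scale for each member at 1, 5 and 10 µM, with bars of 1 standard error from the limma fit across 12 libraries and filled markers where the adjusted p was under 0.05. BCL2L1 (-1.17) and BCL2 (-1.04) lie farthest to the left and BCL2L11 (0.81) farthest to the right at 10 µM.

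Neither effector passed the test at any dose. BAX (ENSG00000087088, chromosome 19, 48954815 to 48961798, plus strand) had values of 11.8, 12 and 12.1 in vehicle, 11.9, 12 and 11.9 at 1 µM, 11.7, 11.7 and 11.8 at 5 µM and 11.5, 11.8 and 11.8 at 10 µM. Its differences were -0.03 at 1 µM (adjusted p = 0.911), -0.23 at 5 µM (0.14) and -0.27 ± 0.10 at 10 µM (0.0745). Those of the 2 higher doses passed with the replicate block (0.0266 and 0.0108) and without vehicle library 6 (0.0449 and 0.0232). BAK1 (ENSG00000030110, chromosome 6, 33572547 to 33580293, minus strand) had differences of the opposite sign. Its values were 9.02, 9.28 and 9.17 in vehicle, 9.20, 9.41 and 9.26 at 1 µM, 9.40, 9.37 and 9.45 at 5 µM and 9.28, 9.39 and 9.49 at 10 µM. Its groups touched or overlapped with vehicle at 1 and 10 µM and were apart at 5 µM. The differences were 0.13 at 1 µM (adjusted p = 0.55), 0.25 at 5 µM (0.0991) and 0.23 ± 0.09 at 10 µM (0.104), and the replicate block gave 0.0299 at 5 µM and 0.0356 at 10 µM.

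Among the BH3-only members, BCL2L11 rose. It encodes BIM, which binds all of the protective proteins listed here (ENSG00000153094, chromosome 2, 111119378 to 111168447, plus strand). Its values were 8.20, 8.0 and 7.81 in vehicle, 8.66, 7.95 and 8.20 at 1 µM, 8.74, 8.41 and 8.40 at 5 µM and 9.26, 8.45 and 8.72 at 10 µM. All libraries at 5 and 10 µM were above all vehicle libraries, and number 6 had the highest value in every group. The counts were 405 ± 136 at 10 µM and 203 ± 34.4 in vehicle, 1.99-fold higher. The difference was 0.27 at 1 µM (adjusted p = 0.618), 0.51 at 5 µM (0.147) and 0.81 ± 0.22 at 10 µM (0.0214), and the replicate block called the 5 µM difference (0.00515). The 10 µM call was lost without vehicle 8 (0.0592), vehicle 11 (0.0787) or 10 µM library 6 (0.0808). With all libraries of number 6 left out the differences were 0.50 at 5 µM and 0.68 at 10 µM (adjusted p = 0.0272 and 0.00733), while without number 8 (0.0906) or 11 (0.218) the 10 µM call was lost. On the opposite strand MIR4435-2HG, a long noncoding RNA, shares 727 exon bases with BCL2L11, and it differed in the other direction, by -1.21 at 10 µM (adjusted p = 6.89e-05).

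BIK, a BH3-only protein found largely at the endoplasmic reticulum (ENSG00000100290, chromosome 22, 43110748 to 43129712, plus strand), fell. Its values were 8.0, 7.82 and 7.65 in vehicle, 7.61, 7.56 and 7.44 at 1 µM, 7.59, 7.15 and 7.11 at 5 µM and 7.02, 7.30 and 7.07 at 10 µM. It was the only member whose 3 dose groups were all clear of vehicle, so that at 1 µM 1 of 10 members did not overlap with vehicle (18.3% of all tested genes). At 5 µM and at 10 µM 6 of 10 members did not overlap, against 29.2% and 33.8% of all tested genes. BIK counts were 88.4 ± 14.3 at 10 µM and 173 ± 27.2 in vehicle, 1.96-fold lower, and the difference was -0.29 at 1 µM (adjusted p = 0.382), -0.54 at 5 µM (0.0287) and -0.69 ± 0.15 at 10 µM (0.00572). The 5 µM call was lost without vehicle 6 (0.0712), vehicle 8 (0.0795) or 5 µM library 8 (0.101) or 11 (0.106), and the 10 µM call held in all 12 such fits. Without all of number 8 or 11 adjusted p was 0.332 and 0.219 at 5 µM and 0.093 and 0.0696 at 10 µM.

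BBC3 encodes PUMA, a BH3-only protein (ENSG00000105327, chromosome 19, 47220822 to 47232766, minus strand). Its values were 8.82, 9.64 and 9.75 in vehicle, 8.75, 9.36 and 9.27 at 1 µM, 8.44, 8.77 and 8.99 at 5 µM and 8.14, 8.99 and 8.81 at 10 µM. Number 6 was the lowest in each group, and its vehicle value lay within the range of the 10 µM libraries of numbers 8 and 11. The differences of -0.28 at 1 µM (adjusted p = 0.70), -0.67 at 5 µM (0.138) and -0.76 ± 0.28 at 10 µM (0.0755) did not pass. With the replicate block those at 5 and 10 µM passed (5.51e-04 and 1.57e-04). They passed too without vehicle library 6 (0.0252 and 0.0129).

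PMAIP1 encodes NOXA, which pairs mainly with MCL1 (ENSG00000141682, chromosome 18, 59899948 to 59904306, plus strand). Its value was 11.2, 10.7 and 10.7 in vehicle, 10.8, 10.9 and 10.9 at 1 µM, 10.7, 11 and 10.9 at 5 µM and 10.9 in each library at 10 µM. The differences from vehicle had opposite signs in different numbers: -0.4, -0.5 and -0.3 at 1, 5 and 10 µM in number 6, but 0.2, 0.3 and 0.2 in number 8 and 0.2 in number 11 at each dose. Over all numbers the mean differences were 0.00, 0.00 and 0.03 ± 0.12, and adjusted p was 1 at 1 and 5 µM and 0.878 at 10 µM. Without number 6, whose vehicle library had the highest G2/M median, differences of 0.20, 0.25 and 0.20 passed (0.0447, 0.0108 and 0.0204). The part of that library's G2/M level in the PMAIP1 and BBC3 values was not tested.

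Promoter sequence was looked up for all 10 members. Cyclic AMP acts on many genes through CREB, which binds the cyclic AMP response element TGACGTCA and its short form TGACG. RefSeq (GRCh38.p14) gave windows of 300 bases, from 250 before the start to 50 after it, for 7 of 10 members. BCL2L2, MCL1 and BIK had no entry. On either strand TGACGTCA was in 0 of the 7, against 1.85% of 35116 promoters in the table. TGACG, which is also part of TGACGTCA, was in 4 (24.6% of all). The forkhead motif TGTTTAC, bound by FOXO factors, was in 1 (3.42%), the E-box CACGTG in 2 (7.26%) and the GC box GGGCGG in 5 (45.0%). A member counted if any of its windows matched, and BCL2L1 had 2 windows, while the shares are per promoter. The PMAIP1 and BBC3 windows were kept, although their bases after the start were not found in a transcript of the gene. The windows of the 2 protective genes that fell and of the BH3-only gene that rose are shown 5′ to 3′ on the gene's strand, with matches to TGACG or TGTTTAC, on either strand, in capitals. BCL2 is at chr18:63319720-63320019 (minus strand), BCL2L1 at chr20:31723914-31724213 (minus strand, the first of its 2 entries) and BCL2L11 at chr2:111120664-111120963 (plus strand).
BCL2: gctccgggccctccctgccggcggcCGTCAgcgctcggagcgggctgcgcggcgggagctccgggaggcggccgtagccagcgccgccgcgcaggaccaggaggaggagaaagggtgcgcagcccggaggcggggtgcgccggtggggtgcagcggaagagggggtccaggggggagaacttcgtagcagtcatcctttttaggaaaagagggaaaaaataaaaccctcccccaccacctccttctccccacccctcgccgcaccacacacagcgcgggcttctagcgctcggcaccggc
BCL2L1: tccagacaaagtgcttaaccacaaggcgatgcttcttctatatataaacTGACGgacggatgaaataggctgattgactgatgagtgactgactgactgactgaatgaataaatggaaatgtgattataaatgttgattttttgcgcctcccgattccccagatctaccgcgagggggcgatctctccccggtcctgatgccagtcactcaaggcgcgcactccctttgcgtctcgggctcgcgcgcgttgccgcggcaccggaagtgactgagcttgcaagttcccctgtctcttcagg
BCL2L11: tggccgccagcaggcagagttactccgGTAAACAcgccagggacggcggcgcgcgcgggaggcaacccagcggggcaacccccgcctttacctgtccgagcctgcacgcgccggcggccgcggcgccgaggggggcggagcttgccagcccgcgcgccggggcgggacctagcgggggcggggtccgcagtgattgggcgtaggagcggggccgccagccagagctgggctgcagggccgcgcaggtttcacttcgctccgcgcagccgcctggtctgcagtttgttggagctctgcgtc
The BCL2 window holds CGTCA, the reverse complement of TGACG, 225 bases before the start, and the BCL2L1 window holds TGACG 201 bases before it. The BCL2L11 window holds GTAAACA, the reverse complement of the forkhead motif, 223 bases before the start and 3 GC boxes nearer to it. A match describes letters and does not show that a factor was bound.

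Levels between genes were compared as recovered counts per kilobase of merged exon. Exon shared with other genes was kept in the length. MCL1 had 9260 ± 1072 at 10 µM and 11368 ± 788 in vehicle. BAX had 1270 ± 149 and BCL2L1 1201 ± 349 at 10 µM, against 1530 ± 161 and 2709 ± 747 in vehicle. BCL2L1 was thus above BAX in every vehicle library on this scale and had overlapping values at 10 µM. Then came PMAIP1 (829 at 10 µM, 821 ± 178 in vehicle), BCL2L2 (384 ± 27.5 and 324 ± 13.4) and BAK1 (277 ± 22 and 233 ± 23.2). BBC3 had 112 ± 36.7 at 10 µM and 203 ± 69.1 in vehicle, and BIK 92.7 ± 15 and 182 ± 28.5, so that these neighbours did not differ beyond their spread in either group. BCL2L11 (60.9 ± 20.4 and 30.5 ± 5.2) and BCL2 (12.6 ± 1.7 and 30.8 ± 5.9) were lowest, level with each other in vehicle and apart at 10 µM. MCL1 made up 77.0% to 86.8% of the per-kilobase sum of the 4 protective members in the 12 libraries. The other 3 summed to 1221, 1772 and 1800 at 10 µM in numbers 6, 8 and 11, against 2212, 3393 and 3586 in vehicle. With MCL1 the protective sum was 9242, 11650 and 11680 at 10 µM, against 12800, 14740 and 15750 in vehicle. The sum of the 6 death-promoting members was lower at 10 µM too, with 2418, 2759 and 2749, against 2963, 2978 and 3060 in vehicle.

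**Figure D3:**
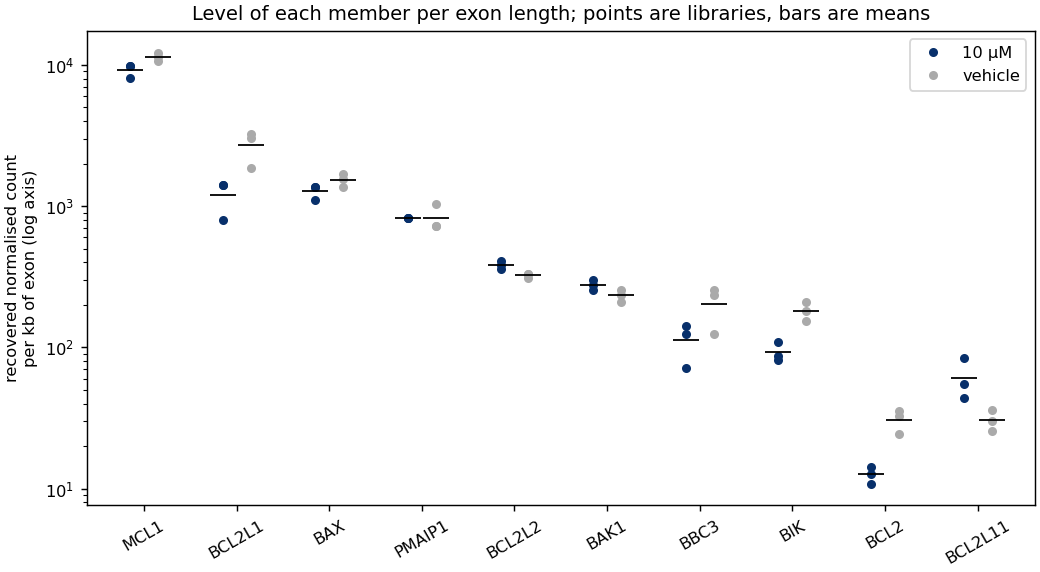
Recovered normalised count per kilobase of merged exon (log axis) for the 10 members at 10 µM and in vehicle, with 1 point per library. MCL1 is highest in both groups, and BCL2L11 and BCL2 are level in vehicle and separate at 10 µM.

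Differences between 2 members within a library depend little on how libraries were scaled to each other. In numbers 6, 8 and 11, BCL2L1 minus BAX was 0.8, 1.3 and 1.3 in vehicle, 0.3, 0.7 and 0.7 at 1 µM, 0.3, 0.6 and 0.6 at 5 µM and -0.1, 0.4 and 0.4 at 10 µM. In each number the 3 dose values were below that of vehicle. BCL2L11 minus BCL2 was -0.21, -0.89 and -0.97 in vehicle, 0.37, -0.62 and -0.21 at 1 µM, 0.94, 0.30 and 0.42 at 5 µM and 1.76, 0.78 and 0.92 at 10 µM. It was below 0 in all vehicle libraries and above 0 in all 5 and 10 µM libraries. BIK minus BCL2L11 averaged -0.18 ± 0.02 in vehicle, then -0.73 ± 0.33 with 1 µM, -1.23 ± 0.07 at 5 µM and -1.68 ± 0.55 at 10 µM (SD, n = 3 each). PMAIP1 minus MCL1 went from -4.73 ± 0.38 in vehicle to -4.40 ± 0.17 at 10 µM. BCL2 minus BAX went from -3.27 ± 0.15 to -4.04 ± 0.08, and BCL2L11 minus BCL2L1 from -5.10 ± 0.62 to -3.12 ± 0.86. BCL2L11 minus MCL1 went from -7.60 ± 0.30 to -6.49 ± 0.58, and BBC3 minus BCL2L11 from 1.40 ± 0.69 to -0.16 ± 0.86. Shifts in pairs with BCL2, BCL2L1, BIK or BCL2L11 follow from the differences of these members given above. These are differences of stabilised values, not of levels per length.

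**Figure D4:**
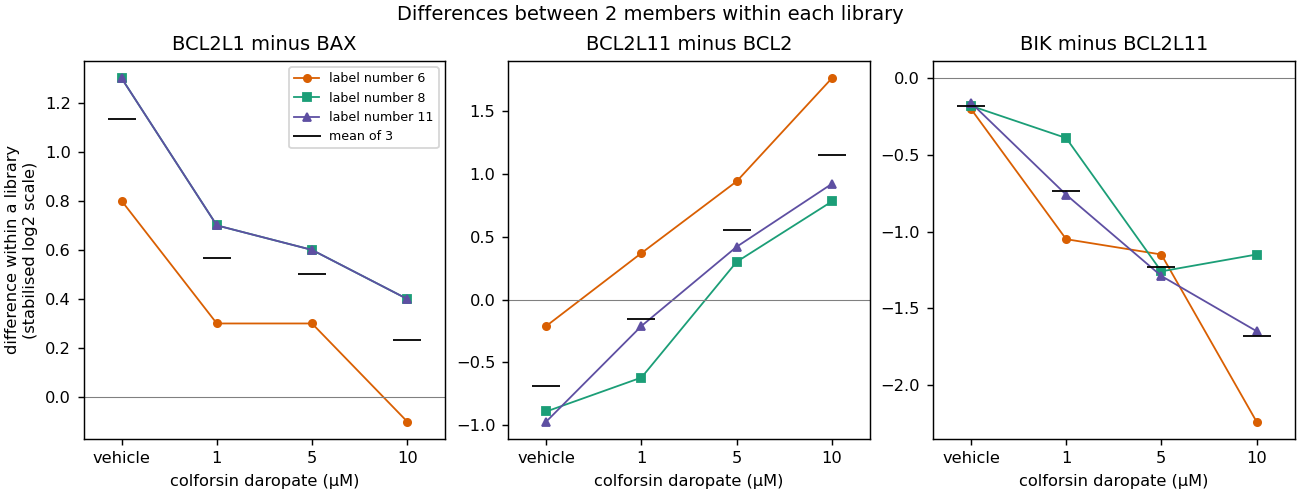
Difference in stabilised value between pairs of members within each library, by dose in µM (0 is vehicle) with 1 line per label number. BCL2L11 minus BCL2 passes from below 0 in vehicle to above 0 at 5 and 10 µM in all 3 numbers, and BCL2L1 minus BAX declines, with numbers 8 and 11 on top of each other.

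Differences between neighbouring doses were mostly small against the spread in the fit without the block. Limma called 0 members at 10 µM against 5 µM, with 0 at an unadjusted p under 0.05, and 0 of all genes (0.0%, with 601 at an unadjusted p under 0.05). At 5 µM against 1 µM it called 0 members, with 2 at an unadjusted p under 0.05, against 0.31% of all genes. The replicate block called BCL2 there (-0.46, adjusted p = 0.0144, 5.19% of all genes), with differences of -0.49, -0.46 and -0.43 in numbers 6, 8 and 11. At 10 µM against 1 µM the block called 7 members, against 20.9% of all genes: BCL2, BCL2L1, MCL1, BAX, BIK and BBC3 lower and BCL2L11 higher. For any difference among the 4 groups, limma called BCL2 (adjusted p = 0.00206), BIK (0.0257) and BCL2L1 (0.0324), 3 of 10 members against 14.8% of all genes, and with the block 8 members against 33.7%. In fits that left out a single library, that of BCL2 held in all 12. BCL2L1 missed without vehicle 8 (0.131), vehicle 11 (0.126), 1 µM library 11 (0.0526) or 5 µM library 8 (0.0564). BIK missed without vehicle 6 (0.0587), vehicle 8 (0.0843) or 10 µM library 6 (0.0625) or 11 (0.0662).

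Further family genes were read from lists of the pathway. BMF, a BH3-only gene, showed the widest gap between numbers. It had 10.1, 8.20 and 8.22 at 10 µM, against 9.10, 6.97 and 7.09 in vehicle, so vehicle library 6 was above the 10 µM libraries of numbers 8 and 11. Its difference of 1.12 at 10 µM missed the threshold (adjusted p = 0.308) and passed with the replicate block (1.44e-05). HRK, a BH3-only gene known from neurons, had 6.61, 7.04 and 7.44 at 10 µM, against 7.07, 8.02 and 7.95 in vehicle, a difference of -0.65 (0.229, with the block 0.00178). BCL2A1, a protective member and NF-kB target, differed from vehicle by 0.73 at 1 µM, 0.63 at 5 µM and 0.20 at 10 µM (adjusted p = 0.122, 0.0766 and 0.562), and the block called the 2 lower doses (0.00119 and 8.61e-04). BID, BAD and BOK did not pass at 10 µM in either fit.

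**Figure D5:**
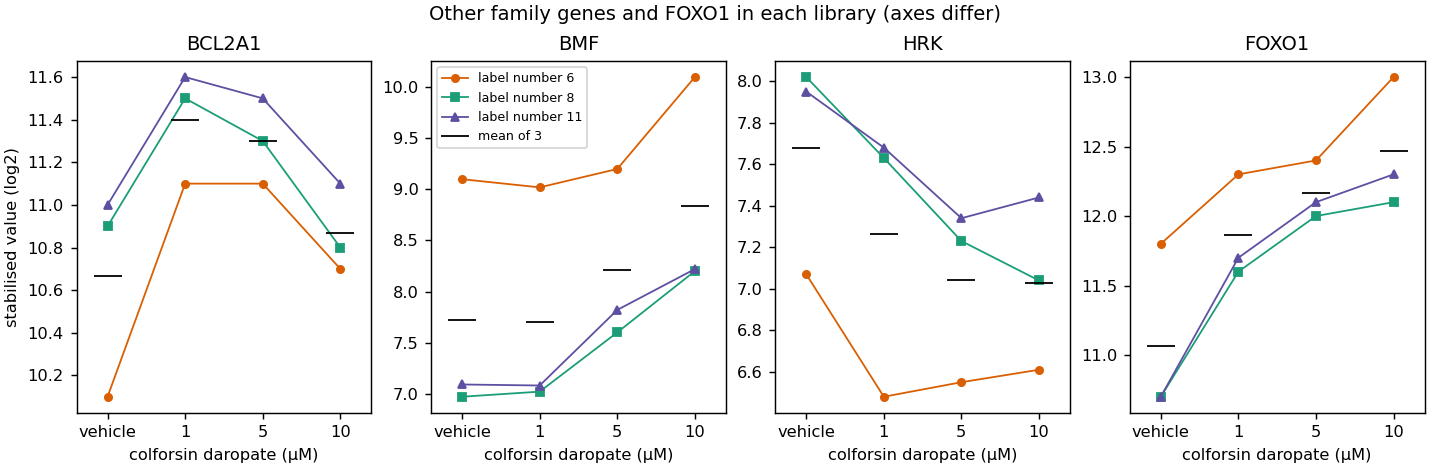
Variance-stabilised values of family genes outside the 10 members and of FOXO1 in the 12 libraries, by dose in µM (0 is vehicle) with 1 line per label number. BMF and FOXO1 climb in each number from different starting levels, and BCL2A1 is highest at 1 or 5 µM in each number.

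Genes around the family were counted at 10 µM, where 22.6% of all tested genes were called, and 38.4% with the block. Of 4 partners in the outer mitochondrial membrane, VDAC1, the main pore for metabolites, fell (-0.40, adjusted p = 0.00199) and 3 did not pass, and with the block 3 of the 4 were lower. Of 13 genes of the apoptosome and caspase cascade, 2 rose and 1 fell, and with the block 3 were higher and 4 lower. DIABLO, which frees caspases from their inhibitors, rose by 0.47 (adjusted p = 0.0322). CASP6, an executioner caspase, fell by 0.37 (0.0246). The DIABLO call was lost in 5 of 12 single-library fits and that of CASP6 in 3, with adjusted p up to 0.116 and 0.0917. Limma called 0 of 5 inhibitors of apoptosis tested, with 0 at an unadjusted p under 0.05, although BIRC3 (cIAP2) differed by -0.95 (0.225) and passed with the block (2.4e-04). It also called 0 of the 4 other BCL2-related genes tested, with 1 lower at an unadjusted p under 0.05 and 0 with the block.

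In the death receptor pathway 3 of 11 tested genes rose and 0 fell (1 lower at an unadjusted p under 0.05). They were TNFRSF10D, a decoy receptor for TRAIL (0.60, adjusted p = 0.00873), TNFRSF1A, the main TNF receptor (0.57, 0.00851), and FADD, the adaptor that recruits caspase 8 (0.27, 0.0109). Of 5 genes that govern the turnover of MCL1 protein, BTRC, an adaptor of a ubiquitin ligase, rose by 0.33 (0.00964), and USP9X, which removes ubiquitin from MCL1, rose by 0.30 (0.0275). FBXW7, a ligase adaptor that marks MCL1 for degradation, fell by 0.43 (0.00891). The USP9X call was lost in 5 of 12 single-library fits (adjusted p up to 0.0891).

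Of 9 tested transcription factors known to act on BCL2 family genes, 2 rose and 2 fell. FOXO1, which activates BCL2L11 in several cell types, had 13, 12.1 and 12.3 at 10 µM, against 11.8, 10.7 and 10.7 in vehicle (1.40 ± 0.31, adjusted p = 0.0076). TP73 fell by 0.78 (0.00633) at a level near the floor, and E2F1 fell by 0.55 (0.0131). The calls of FOXO1, TP73 and E2F1 held in the 12 fits that left out a single library. They were lost without all of number 8 (0.107, 0.119 and 0.10) or 11 (0.135, 0.0618 and 0.102), and that of E2F1 also with only the 2 groups compared (0.0652). The calls of DIABLO, CASP6, TNFRSF10D, TNFRSF1A, FADD, BTRC, USP9X and FBXW7 were also lost without number 8 and without number 11, and that of VDAC1 without number 8 (0.0959). Those of DIABLO (0.0878) and CASP6 (0.0696) were lost without number 6 as well. Of 23 tested G2/M genes 0 were called at 10 µM, with 0 at an unadjusted p under 0.05, and their median difference was -0.41. That sign follows number 6, whose G2/M median was 9.44 at 10 µM and 11.4 in vehicle, while in numbers 8 and 11 the medians were higher at 10 µM (9.55 and 9.19) than in vehicle (9.19 and 8.78).

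The tested genes whose values followed each called member most closely over the 12 libraries were found by Pearson's r, which is a description here, since these libraries share their dose groups and their numbers. BCL2 was followed by POLR1E, a subunit of RNA polymerase I (r = 0.987), TMEM14B (0.985) and LYRM4 (0.980). After ABALON, BCL2L1 was followed by TBC1D2 (0.989) and AGPAT5 (0.986). BCL2L2 was followed by HS3ST1 (0.964), TRPM3 (0.963) and PHF10 (0.955). BIK was followed by LINC01943 (0.967) and LRRK1 (0.956). BCL2L11 was followed by ST6GALNAC5 (0.969), ABCG1, a cholesterol exporter (0.968), and CAT, the gene of catalase (0.967). The genes closest to BCL2, BCL2L1 and BIK were lower at each dose and those closest to BCL2L2 and BCL2L11 higher, as their members were. These matching directions follow from choosing the genes by their correlation with the member in the same libraries.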

How the data were processed

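Total RNA depleted of ribosomal RNA was sequenced from 12 HEYA8 libraries, per the labels' protocols. The authors deposited variance-stabilised log2 values. Per the submitters' processing notes, DESeq2 was used and the build was GRCh38 (hg38). Aligner, read counter, strand setting and gene filter are not given in the sources used here. Of 21211 entries, 4 named no gene (reads with no feature made 36.2% to 41.4% of reads) and stayed out of all tests. Symbols were matched by Ensembl ID (21166 genes), and positions are from GENCODE. Inverting the stabilising curve put 96.8% of 43966 low values on a whole read within 0.0055, against 23.9% with another library's depth. From 10 up, a recovered count carries the rounding of the deposited value.

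Limma 3.58.1 in R 4.3.3 was fitted to the 12 libraries with 4 groups and a variance trend. Genes needed a value more than 1 above the floor in 3 libraries. The fit was run on simulated data with known changes and independent libraries, which does not test it under effects shared by a number. Alternatives were the replicate block, other filters, quantile normalisation, log2(count + 1), only the 2 groups compared, array weights, and leaving out libraries or numbers. The pairing comes from the numbers in the sample titles: all 18 same-numbered pairs had correlated deviations from the group means (r = 0.316 to 0.777). Of the 36 other pairs, those of number 6 with 8 or 11 were all negative (-0.711 to -0.287). Deviations sum to 0 within each group, so where same-numbered pairs are positive, negative values in other pairs are partly built in. Pairs of number 8 with 11 were all positive even so (0.199 to 0.569), and the pattern was mainly number 6 against 8 and 11. Of the 12 libraries, 9 correlated best with their own number. All 10 members are named. Of each further list, up to 3 genes that rose and 3 that fell at 10 µM are named, chosen by size, and any family gene. BIRC3, ABALON and MIR4435-2HG were named after their values were seen. For each called member, the 3 genes with the highest correlation are named. Some genes that these rules select are not reported here. Members and lists were chosen with earlier results of these data known.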

Additional observations from a re-analysis of the deposited data

How the results depend on the processing

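The deposited scale, its rounding and the low depth of vehicle library 6 limit small differences: a value from 10 up moves in steps of 0.1, and BCL2L2 rests on 1 to 3 such steps. Of the 30 member differences from vehicle, 28 were not 0. Over these and all alternatives, 588 of 700 values kept their direction and side of the threshold, 53 lost a call, 46 gained one, 2 came to 0 and 11 changed sign. PMAIP1 at 1 and 5 µM had a difference of 0 and so no direction to keep, with left-out values of -0.10 to 0.20 and -0.15 to 0.25. All 11 were differences that had not been called: MCL1 at 1 µM (0.013 with quantile normalisation, 0.05 without 1 µM library 6, and -0.15 to 0.05 over all fits that left out libraries), BAX at 1 µM (0.033 without vehicle library 11, 0.05 without number 11 with or without the block, range -0.117 to 0.05) and PMAIP1 at 10 µM (-0.05 without vehicle library 8 or 11, or without number 8 or 11 with or without the block, range -0.05 to 0.20). BCL2A1 at 10 µM changed sign without vehicle library 6 (-0.083, range to 0.367). Losses without all of number 8 or 11 leave 2 libraries a group, 1 of them of number 6. The cause of the other changes was not tested.

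The counts moved by more than 1.5 times under 4 settings. With the replicate block, higher and lower genes numbered 1201 and 934 at 1 µM (210 and 109 without it), 2712 and 2724 at 5 µM (1362 and 1322) and 3326 and 3498 at 10 µM (1982 and 2033), and members 0 and 1 at 1 µM and 3 and 6 at 5 and 10 µM. The block called 3713 genes and 7 members at 10 against 1 µM, 922 and 1 at 5 against 1 µM, 1 gene at 10 against 5 µM, and 5980 genes and 8 members for any difference. With array weights the higher and lower genes were 2675 and 2451 at 1 µM, 3829 and 3825 at 5 µM and 3633 and 3761 at 10 µM, and the members 1 higher and 3 lower at 1 µM, 3 higher and 5 lower at 5 µM and 6 lower at 10 µM. Weights called 2763 genes and 3 members at 10 against 1 µM, 1830 and 4 at 5 against 1 µM, and 8544 and 8 for any difference. With only the 2 groups compared the genes were 29 and 19 at 1 µM, 840 and 761 at 5 µM and 1276 and 1277 at 10 µM, with 0 members higher at 5 and 10 µM and 1 lower at 5 µM. It called 263 genes at 10 against 1 µM and 12 at 5 against 1 µM, and a test of any difference among 4 groups could not be made. With no filter 0 members were higher at 5 µM.

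Leaving out single libraries or whole numbers gave 2 to 1419 genes higher and 0 to 1155 lower at 1 µM, 81 to 2656 and 56 to 2626 at 5 µM, and 347 to 3049 and 252 to 3236 at 10 µM. Members numbered 0 to 1 in either direction at 1 µM, 0 to 3 higher and 0 to 5 lower at 5 µM, and 0 to 3 and 1 to 6 at 10 µM. At 10 against 1 µM these fits called 0 to 2590 genes and 0 to 4 members, at 5 against 1 µM 0 to 702 genes, and for any difference 61 to 4924 genes and 0 to 8 members.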
